A study of Caenorhabditis elegans with 2 samples.

Results

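The regions described here are the peaks of RNA polymerase II on the X chromosome of Caenorhabditis elegans that lie away from tRNA genes. They were taken from the authors' relaxed peak list for the pooled reads on the ce11 assembly, which holds peaks together with background. A peak was kept if its summit, the position of highest signal in the peak, lay on X and more than 500 bp from every annotated tRNA gene. This left 2509 of the 2730 X peaks in the list, out of 30000 peaks on all chromosomes, and 221 X peaks near tRNA genes were left out. Autosomal peaks chosen in the same way, 26949 in all, serve as the comparison.

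The study mapped AMA-1 by ChIP-seq, the sequencing of DNA fragments brought down with an antibody from sonicated chromatin, in whole worms at the young adult stage, labelled as males and females pooled and of unknown age. Both samples are of strain YL503, which carries unc-119(ed3) III and the transgene vrIs110. In vrIs110 the promoter of pie-1, a gene of the germline, drives AMA-1 with GFP and FLAG tags at its C-terminal end, with the AMA-1 3'UTR and unc-119 (+) as the marker. The 2 samples are biological replicates of this 1 group, so no conditions were compared. The antibody is labelled ama-1, and the sources used here do not say if it recognised the tags or the protein. A listed control library was not analysed here. Since the worms were taken whole, a peak in many cells and a strong peak in few cells cannot be told apart.

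RNA polymerase II transcribes protein-coding genes and many small RNA genes, and AMA-1 is its catalytic core. It often accumulates just downstream of gene starts and past the polyadenylation sites at gene ends. tRNA genes are instead read by RNA polymerase III, through internal promoter elements called the A box and the B box. The X chromosome is special in this animal. In germ cells it is largely kept silent, and genes of the germline's own programme are scarce on it. In the somatic cells of animals with a pair of X chromosomes, a condensin-containing dosage compensation complex loads at recruitment sites on X and lowers transcription along it. Those recruitment sites hold a motif called MEX, whose letters include CGCAGGG.

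The sequences shown here are those around the letters CGCAGGG, because these letters recurred at the strongest X peaks. Each peak was searched over 201 bp, its summit and 100 bp on either side, on both strands. Of the 100 members of highest signal, 10 held these letters, in 11 matches. The matches are printed below with 12 bases before and 11 after, on the strand that reads CGCAGGG, from the RefSeq genome of assembly WBcel235, which ce11 names. Capitals mark the match, and a match is a description and not a shown binding site.
T27A8.7, chrX:16056522-16056551, minus strand: tttcaaatttgcCGCAGGGagttgcacatt
F55G7.5, chrX:11937530-11937559, plus strand: gggaggtacaaaCGCAGGGaagagaattaa
F25E2.2, chrX:806663-806692, plus strand: gtgcgattatcgCGCAGGGgtgtttgttgc
past hpk-1, chrX:4209255-4209284, minus strand: ttgccgctatcgCGCAGGGacacctctttc
mom-1, first match, chrX:6296537-6296566, plus strand: atttacatttggCGCAGGGggtcaccatag
mom-1, second match, chrX:6296565-6296594, plus strand: agataggtatcgCGCAGGGaagatttaccg
past cdk-4, chrX:13514547-13514576, plus strand: atacctttatcgCGCAGGGatattgaaatc
WBGene00020828, chrX:1837881-1837910, plus strand: gccactcggccgCGCAGGGcacggaaatgt
member of rank 14 by signal, chrX:11094215-11094244, minus strand: gggaaccattcgCGCAGGGacacctcactg
member of rank 23, chrX:16682161-16682190, minus strand: aagaaaacatcgCGCAGGGaacatcaaatt
member of rank 28, chrX:17181354-17181383, minus strand: tattgaaataagCGCAGGGaaggcgataca

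X carried fewer of these peaks than any autosome. There were 141.6 peaks per Mb on X, against 228.5 on chromosome V, the lowest of the autosomes, and 427.2 on chromosome III, the highest. Protein-coding genes were also sparser on X, with 154.1 per Mb against 208.9 on the autosomes together. In each replicate's own list X was also lower than the 5 autosomes combined, with 3223 X peaks away from tRNA genes in replicate 1, or 181.9 per Mb against 318.0. Replicate 2 had 2964, or 167.3 per Mb against 285.6. Chromosomes are not replicates, so these densities are given with no test.

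The difference was wider among strong peaks. The signal is the authors' own value for each peak, comparable only within 1 list. The pooled signal of the 2509 members ran from 3.61 to 52.1 with a median of 6.12, and the medians of the 5 autosomes ran from 6.79 to 7.04. The highest signal was 52.1 on X, against 78.9 to 115.3 as the highest on each autosome. At a signal of 20 or more there were 35 members, or 1.98 per Mb, against 10.9 to 21.2 per Mb on the autosomes. The authors' thresholded list held 12 members, which is 0.478% of them. Its 732 peaks ran down to a pooled signal of 27.5, which is the signal at rank 732 of the pooled list. Being in the thresholded list thus marks the highest pooled signals and is not a separate measure of replication. Over all 30000 pooled peaks the share in that list was 2.44%, and over the autosomes away from tRNA genes it was 1.76% to 2.21%.

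**Figure D1:**
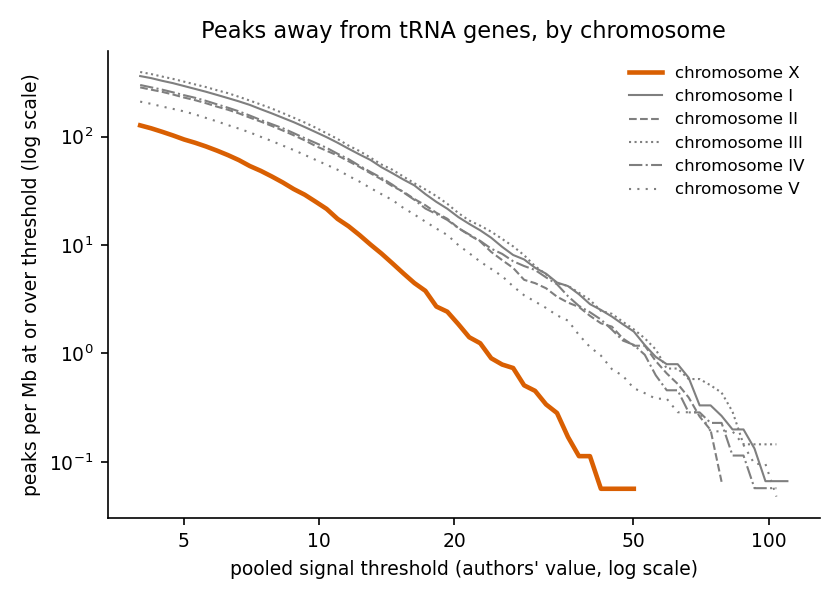
Number of peaks away from tRNA genes per Mb (vertical axis, log scale) at or over each pooled signal (horizontal axis, log scale), for X in orange and each autosome in grey. The X line lies under all 5 autosome lines over its whole range, with 1.98 peaks per Mb at a signal of 20 against 10.9 to 21.2 on the autosomes.

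Of the 96 thresholded X peaks, 84 were left out by the tRNA rule. The 221 X peaks within 500 bp of a tRNA gene had a median signal of 22.5, and reached 70.1. X held 276 tRNA genes, and the 5 autosomes together held 336. The peaks nearest to the 500 bp limit were weak on both sides of it. The 5 members nearest to a tRNA gene lay 513 to 527 bp away with signals of 3.84 to 11.9. The 5 nearest peaks on the other side of the limit lay 426 to 465 bp away with signals of 3.86 to 9.18. Members over 500 and up to 1000 bp away numbered 40, with a median of 5.25, and the 10 peaks left out beyond 250 bp had a median of 5.38. The highest of the 40 had a signal of 21.4 and lay 885 bp from a tRNA gene.

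The replicates shared few of the weak members and most of the strong ones. A member was counted as found in a replicate when its summit lay inside one of that replicate's relaxed peaks. Replicate 1 held 1300 members (51.8%), replicate 2 held 871 (34.7%), and 309 were in both (12.3%, exact 95% binomial interval 11.1% to 13.7%). The share in both was 20.6% over all 30000 pooled peaks and 19.1% to 21.7% on the autosomes away from tRNA genes. Neither replicate held 647 members, or 25.8%, against 18.6% to 20.4% on the autosomes.

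Signal and replication moved together among the members. Of those under a signal of 5, 25 of 837 (2.99%) were in both replicates, against 4.08% on the autosomes. From 5 to 10 the share was 9.13% on X, against 1830 of 13072 peaks on the autosomes. From 10 to 15 it was 32.7% on X and 35.1% on the autosomes, and from 15 to 20 it was 54.1% and 55.5%. At 20 to 30 it was 70.4% of 27 members and 75.8% of 887 autosomal peaks, and all 8 members at 30 or more were in both. Among the 100 highest members, 64 were in both replicates, 26 only in replicate 1 and 10 only in replicate 2. The pooled list comes from the reads of both replicates, so these shares describe the lists and are not an independent check. When each replicate's own X peaks away from tRNA genes were ranked, 13 of the top 100 of replicate 1 had their summit in a top 100 peak of replicate 2, and 11 the other way.

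The 12 thresholded members lay in varied places. The highest lay 200 bp past the end of T27A8.7, at chrX:16056458-16056761, and its signal was 52.1 in the list of pooled reads (hereafter pooled), 39.1 in the list of replicate 1 and 12.8 in that of replicate 2. The next lay 551 bp past the end of F55G7.5, at chrX:11937427-11937730, with 41.3 pooled, 25.6 in replicate 1 and 16.4 in replicate 2. Next came one inside the non-coding RNA gene C30E1.9, at chrX:16931195-16931498, with 36.7 pooled, 22.6 in replicate 1 and 7.54 in replicate 2. None of these 3 lay within 1 kb of a protein-coding gene start.

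The fourth lay on ZK380.t2, a tRNA pseudogene, at chrX:1643759-1644062, with 35.5 pooled, 23.0 in replicate 1 and 12.1 in replicate 2. Pseudogenes of tRNAs were not part of the rule that removed peaks, so this peak stayed in. Its window held the letters GGTTCGA of the B box, the internal element that RNA polymerase III genes use, shown here in capitals in the RefSeq sequence.
ZK380.t2, chrX:1643887-1643916, plus strand: tccaagcacgcgGGTTCGAttccccgactc

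A peak 352 bp past the end of F25E2.2, at chrX:806487-806790, had 35.2 pooled, 26.1 in replicate 1 and 3.95 in replicate 2. A peak 392 bp before the start of F13C5.2, at chrX:593416-593719, had 32.9 pooled, 10.2 in replicate 1 and 13.9 in replicate 2. Both were found in each replicate, 1 beyond a gene end and 1 before a gene start. At chrX:4209149-4209452, 1270 bp past the end of hpk-1, a homeodomain-interacting protein kinase gene, the signal was 31.0 pooled, 14.7 in replicate 1 and 14.9 in replicate 2. The peak 179 bp before the start of Y81B9A.1, at chrX:9192113-9192416, also lay inside the non-coding RNA gene Y81B9A.5. It had 30.5 pooled, 15.3 in replicate 1 and 7.24 in replicate 2. Of the 12, those at F13C5.2 and Y81B9A.1 were the ones within 500 bp of a gene start.

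The 4 others included 1 inside a protein-coding gene. This peak, at chrX:6296427-6296730 in an intron of mom-1, a Porcupine-family gene needed for Wnt secretion, had 29.7 in the pooled list and 23.7 in replicate 2. Its summit lay in no relaxed peak of replicate 1, whose nearest X summit was 232 bp from the second of its printed matches. Another pair lay more than 1 kb from any gene. The one at chrX:13700794-13701097, 5145 bp past the end of the metalloprotease gene adm-2, had 28.6 pooled, 21.2 in replicate 1 and 8.80 in replicate 2. The one at chrX:13514448-13514751, 1256 bp past the end of cdk-4, a kinase of the cell cycle, had 28.2 pooled, 17.1 in replicate 1 and 11.6 in replicate 2. The last lay 457 bp past the end of WBGene00020828, inside the pseudogene T26C11.3, at chrX:1837673-1837976. It had 27.5 pooled, 23.3 in replicate 1 and 4.91 in replicate 2. So 11 of the 12 lay outside protein-coding genes (exact 95% interval 61.5% to 99.8%), against 244 of 541 thresholded autosomal peaks, or 45.1%. X was already higher over all peaks, with 44.7% of members outside such genes, against 28.8% of autosomal peaks. Among peaks with a signal of 20 or more, the shares were 68.6% of 35 members and 41.9% of 1311 autosomal peaks.

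The members just under the threshold included peaks before gene starts and in introns. The highest of them, 201 bp before the start of the twinfilin gene twf-2, had 27.4 pooled, 17.3 in replicate 1 and 11.7 in replicate 2. The member of rank 14, whose sequence is printed above, had 25.6 pooled, 23.1 in replicate 1 and 24.5 in replicate 2, the highest value of any X peak away from tRNA genes in the replicate 2 list. A peak 307 bp before mbk-1, a gene of the DYRK kinase family, had 25.3 pooled, 7.24 in replicate 1 and 13.2 in replicate 2. All 3 were found in both replicates. None was in the thresholded list, since their pooled signals lay under the 27.5 at which that list ended.

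Introns held the peaks at ZK470.2, scav-5 and ldb-1. scav-5 encodes a CD36-like scavenger receptor, and ldb-1 a partner of LIM-domain proteins. ZK470.2 had 24.7 pooled, 20.6 in replicate 1 and 6.80 in replicate 2. The scav-5 peak had 24.0 in the pooled list and 23.7 in replicate 1, and the ldb-1 peak had 23.6 and 8.44, with no peak at either summit in replicate 2. The calsequestrin gene csq-1, encodes the calcium store protein of muscle. Its peak 167 bp before the start had 23.5 in the pooled list and 11.6 in replicate 2, and none in replicate 1. A peak 822 bp before F02E8.4 had 23.3 pooled, 10.7 in replicate 1 and 5.79 in replicate 2.

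The rest of the 25 highest members included microRNA neighbourhoods. An intron of F09A5.3 held a peak 139 bp from cel-mir-54, with 23.3 pooled, 16.9 in replicate 1 and 7.47 in replicate 2. A peak 1090 bp before ain-1, which encodes a GW182-family protein of microRNA silencing, had 23.1 pooled, 8.47 in replicate 1 and 14.8 in replicate 2. A peak 1060 bp from cel-mir-34 had 21.8 in the pooled list and 3.62 in replicate 2, and none in replicate 1. The peak at the printed sequence chrX:16682161-16682190 had 22.1 pooled, 6.29 in replicate 1 and 16.4 in replicate 2. The diacylglycerol kinase gene dgk-2 held a peak in a UTR, with 21.6 pooled, 19.3 in replicate 1 and 2.64 in replicate 2. Of the 25, 20 were found in both replicates, 2 only in replicate 1 and 3 only in replicate 2. The lowest of their replicate values were 6.29 in replicate 1 and 2.64 in replicate 2, the latter near the lowest signal of that list.

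**Figure D2:**
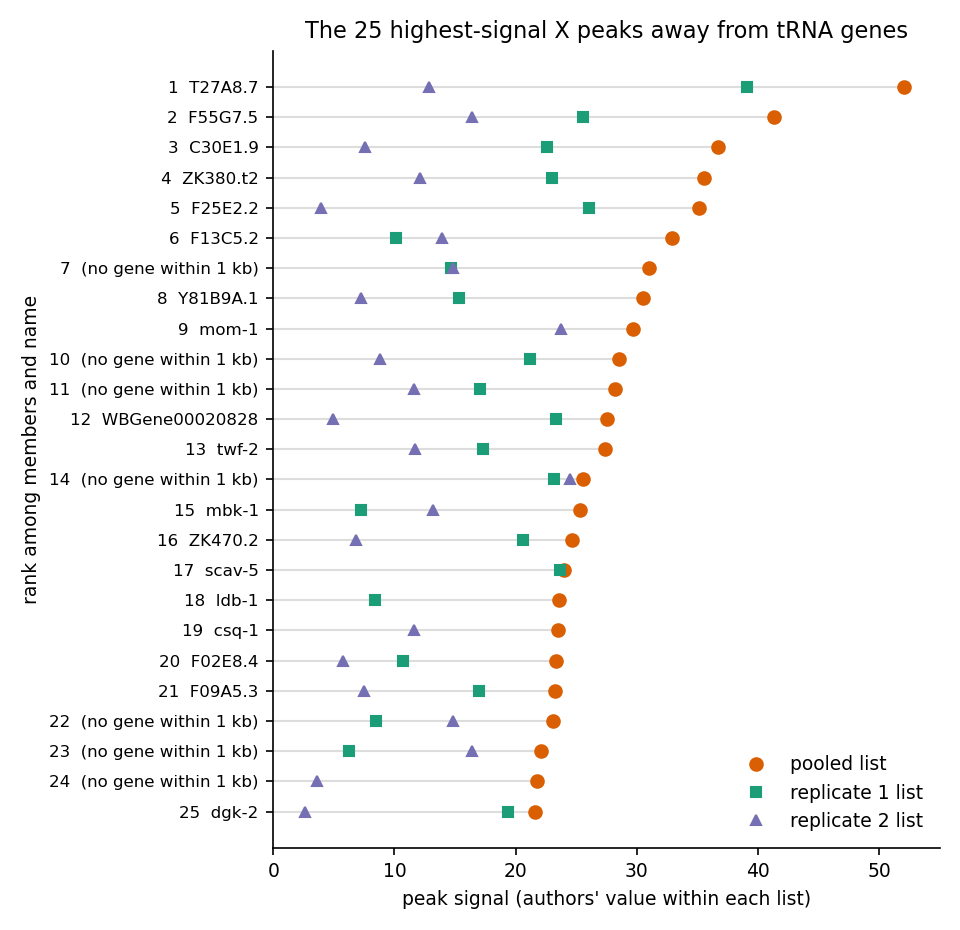
Signal (horizontal axis, the authors' value within each list) of the 25 members of highest pooled signal, in rank order down the vertical axis, with the pooled list as circles, replicate 1 as squares and replicate 2 as triangles. A missing square or triangle is a summit in no relaxed peak of that replicate, which is the case for 5 of the 25, and position-named members are shown as having no gene within 1 kb.

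Members lay near gene starts and ends less often than autosomal peaks did. Within 500 bp of a protein-coding gene start were 441 members (17.6%, exact 95% interval 16.1% to 19.1%), against 23.2% to 26.9% on the autosomes. Within 500 bp of an end were 456 (18.2%), against 24.6% to 28.9%. Near either were 812 members (32.4%), against 41.7% of all autosomal peaks. X has fewer genes, and the same windows cover 25.8% of the X sequence and 32.1% of the autosomal sequence. The median distance to the nearest start was 1851 bp on X, against 1206 to 1437 bp on the autosomes, and to the nearest end 2057 bp, against 1234 to 1462 bp.

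Each summit was also given 1 place only, in the order start, end, UTR, coding exon, intron and other. Starts took 17.6% of members, ends 14.8%, UTRs 1.39%, coding exons 10.6%, introns 26.6% and other places 29.0%. On the autosomes the shares were 25.6% at starts, 16.1% at ends, 1.37% in UTRs, 15.4% in coding exons, 13.5% in other places, with 7547 of the 26949 in introns. Cut the same way, the X sequence was 15.1% start, 10.7% end, 0.951% UTR, 14.1% coding exon, 25.8% intron and 33.4% other. Members were thus over their share of the X sequence at starts and ends, and under it in coding exons and other places. Autosomal peaks differed from their sequence in the same directions at starts, ends and other places. In coding exons they hardly differed, with 15.4% of peaks against 15.7% of the sequence. The autosomal sequence was 19.6% start, 12.5% end, 15.7% coding exon and 23.9% other.

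Strong members lay at gene starts and ends less often than strong autosomal peaks. At a signal of 20 or more, 12 of 35 members (34.3%, interval 19.1% to 52.2%) were within 500 bp of a start or an end, against 1024 of 1311 autosomal peaks (78.1%). Starts took 6 of the 35, ends alone took 6, introns 6, coding exons 2, UTRs 1 and other places 14. An end lay within 500 bp of 7 of the 35, against 66.7% of the autosomal peaks. At signals of 10 to 15, 15 to 20 and 20 to 30, the share near an end was 24.8%, 25.7% and 18.5% on X, against 33.7%, 49.6% and 61.8% on the autosomes.

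**Figure D3:**
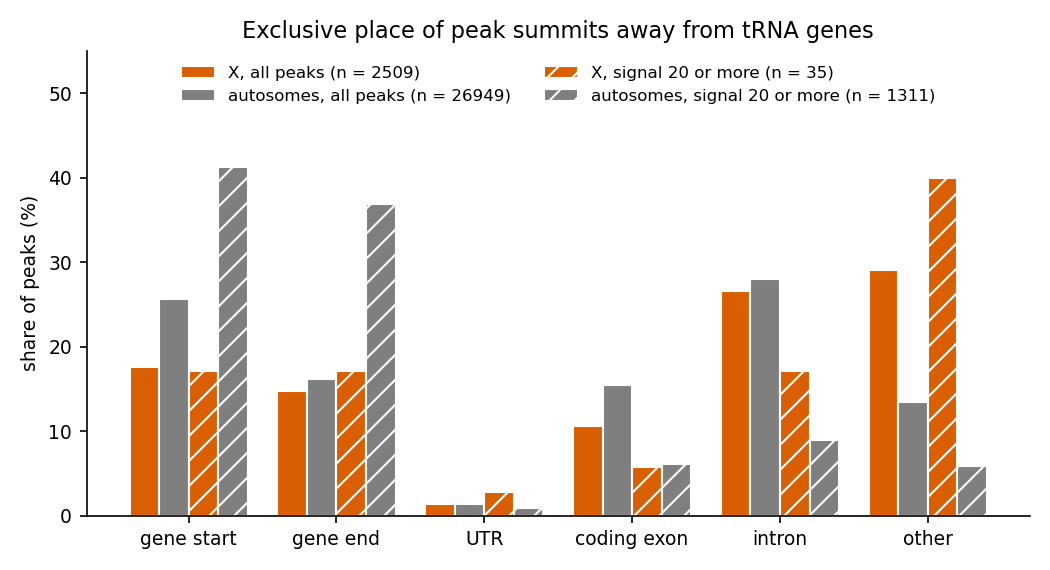
Share of peaks away from tRNA genes (vertical axis, %) in each exclusive place (horizontal axis), for X in orange and autosomes in grey, with all peaks as plain bars and those of signal 20 or more as hatched bars. Strong autosomal peaks were at starts or ends in 78.1% of cases, while 14 of the 35 strong X peaks were in other places.

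The profile of summits around genes was flatter on X. Just past the end, from 0 to 100 bp, lay 2.59% of members and 4.92% of autosomal peaks. From 100 to 200 bp past it the shares were 2.23% and 4.68%, and the highest bin on X was the next one, at 2.87%. Before the start, the bin from 200 to 100 bp upstream held 2.71% of members, the highest near starts on X, against 3.10%. In the last 100 bp before the start the shares were 2.27% and 3.41%.

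**Figure D4:**
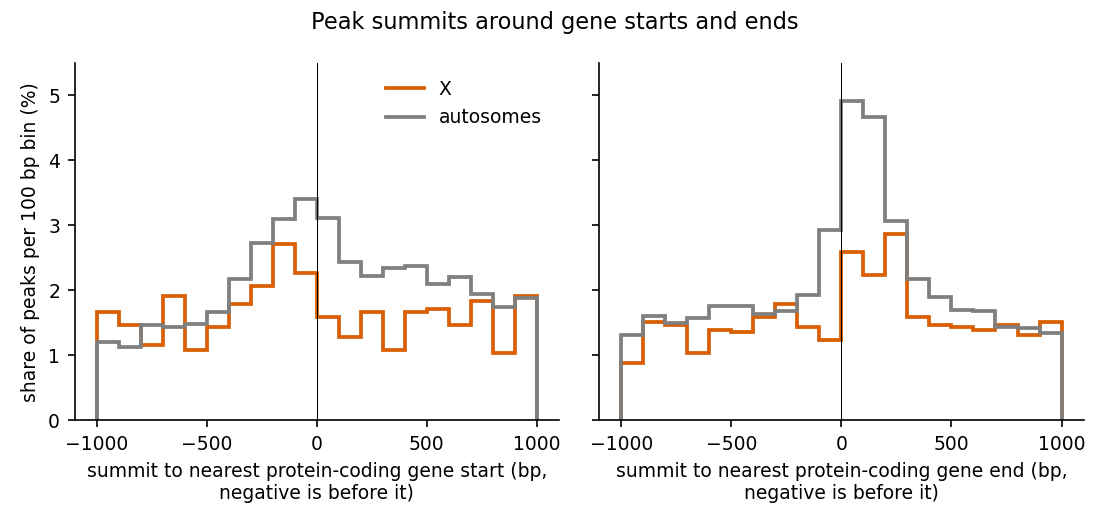
Share of peak summits per 100 bp (vertical axis, %) by signed distance to the nearest protein-coding gene start or end (horizontal axis, bp, negative is before it), for X in orange and autosomes in grey. The autosomal line reaches 4.92% just past gene ends, where X has 2.59%.

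Along X, members were fewer in the middle. With the chromosome cut into 3 equal parts, the left, middle and right parts held 899, 693 and 917 members, although the middle held the most gene starts, 976, with 871 in the left and 884 in the right. Of the 100 highest members, 42 lay in the left part, 21 in the middle and 37 in the right. Of the thresholded members, 5 lay in the left part, 2 in the middle and 5 in the right. In bins of 1 Mb, leaving aside the short last one, the count ran from 91 to 182.

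The letters CGCAGGG were found at the strongest members. They were within 100 bp of the summit in 7 of the 12 thresholded members (58.3%, exact 95% interval 27.7% to 84.8%), against 4 of 541 thresholded autosomal peaks (0.739%). At a signal of 20 or more they were in 10 of 35 members (28.6%), against 9 of 1311 autosomal peaks (0.686%). Among the 100 highest of each set there were 10 on X and 2 on the autosomes. Over all 30000 pooled peaks the share of windows with the letters was 0.477%, over all members 22 of 2509 (0.877%), and over the autosomes 0.335% to 0.543%. Under the highest 100, it was 12 of 2409 members (0.498%), near that background. These letters were searched with earlier results of these data known, and no test is given.

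The same letters were at the top of each replicate's own list. Among the 12 highest X peaks away from tRNA genes, they were in 5 for replicate 1 and 4 for replicate 2. Among the 100 highest they were in 8 for replicate 1 and 9 for replicate 2, against 1 and 2 of the 100 highest autosomal peaks. Over the whole chromosome the letters occur 301 times on X, or 16.99 per Mb, against 14.7 to 18.9 per Mb on the autosomes. Of the 301, 23 (7.64%) lay in a member window, against 9.30% to 12.3% on chromosomes I to IV and 5.23% on chromosome V. These shares depend on how much sequence the windows cover, and X had the fewest peaks per Mb. For the common letters AATAAA the share was 2.74% on X, against 4.63% on chromosome V and up to 9.42% on chromosome III. In windows with a signal of 20 or more lay 11 of the 301 on X, against 0 to 4 on each autosome. The median distance from the match to the summit was 34 bp.

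**Figure D5:**
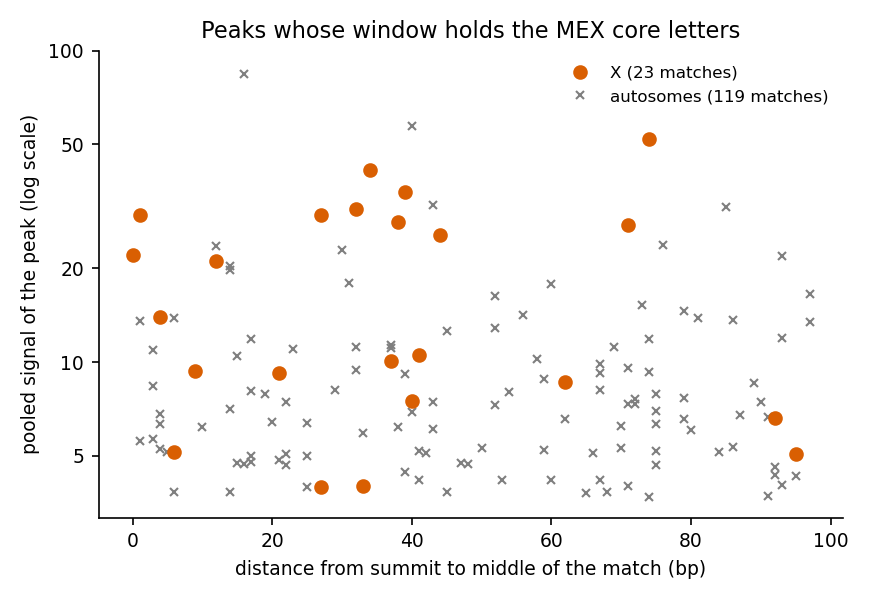
Pooled signal of the peak (vertical axis, log scale) against the distance from the summit to the middle of the match (horizontal axis, bp), for every match of the 7 letters in peak windows, with X as orange circles and autosomes as grey crosses. On X 11 matches lie at a signal of 20 or more, in 10 peaks, against 9 autosomal peaks of 1311.

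The bases beside the match also differed between strong and weak members. Of the 11 matches in the highest 100 members, 9 had a G before the match, 7 had CG, 6 had TCG and 5 had ATCG, as the printed sequences show. Of the 12 matches in lower members, 7 had a G, 4 had CG, 1 had TCG and none had ATCG. An A followed 8 of the 11 and 5 of the 12. With the G included, the letters GCGCAGGG, which contain CGCAGGG, were in 5 of the 12 thresholded members, against 2 of 541 thresholded autosomal peaks, and in 15 of all members (0.598%), against 21 autosomal peaks (0.0779%). Unlike the shorter letters, GCGCAGGG was itself more frequent on X, with 81 places or 4.57 per Mb, against 2.06 to 3.34 per Mb on the autosomes. These longer letters were chosen after the windows were seen.

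TCG directly before CGCAGGG occurs 19 times on X and 6 times on the 5 autosomes together, of which 2 are on chromosome III, 1 on chromosome IV and 3 on chromosome V. Of the 19, 7 lie in a member window, and 10 have a member summit within 500 bp. A summit of either replicate's X list lay within 100 bp of 10 of the 19, for replicate 1 of 6 and for replicate 2 of 9. A pair of these places lies 4909 and 4874 bp from the nearest gene start, 219 and 184 bp from an X peak left out because of a tRNA gene. None of the 19 was within 500 bp of a protein-coding gene start.

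For the other letters, shares over all members were near those of the autosomes. The B box letters GGTTCGA were in 35 members (1.39%), against 1.41% to 2.26% on the autosomes, 2.61% of all pooled peaks and 122 of the 221 X peaks near tRNA genes (55.2%). They were in 2 of the 12 thresholded members, against 27 of 541 thresholded autosomal peaks (4.99%). At a signal of 20 or more GGTTCGA was in 4 of 35 members (11.4%), against 50 of 1311 autosomal peaks (3.81%). Among the 100 highest of each set it was in 6 on X and 8 on the autosomes. AATAAA, the letters of the polyadenylation signal, were in 40.0% of members and 39.9% of autosomal peaks. Among the 100 highest of each set, AATAAA was in 31 on X and 50 on the autosomes. GAGAGA was in 12.6% of members and 12.7% of autosomal peaks, and in 28 and 20 of the 100 highest. The shares over all pooled windows were 39.8% for AATAAA and 12.8% for GAGAGA. Base composition moved with signal as well. The median G and C content of the windows was 33.8% for members under a signal of 5 and 42.8% at 20 to 30, against 34.8% and 36.8% on the autosomes, and its part in the counts of letters was not tested.

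Small RNA genes other than tRNA genes took a small share of members. Within 500 bp of a microRNA, snoRNA, snRNA or rRNA gene were 30 members (1.20%), against 1.43% to 2.15% on the autosomes. MicroRNA genes, which make short RNAs that silence mRNAs, had 17 of these members, beside 14 of the 74 on X. snoRNA genes, whose RNAs guide modification of ribosomal RNA, had 10 members beside 10 of 33, and snRNA genes of the splicing machinery had 3 beside 2 of 3. The strongest were at cel-mir-54, described above, and 378 bp from cel-mir-56, with 20.6 in the pooled list and 16.8 in replicate 1 and none in replicate 2. A peak on cel-mir-239a had 19.6 pooled, 6.56 in replicate 1 and 5.91 in replicate 2. The snoRNA gene K09E9.5 had a peak 22 bp away, with 18.02 pooled, 11.8 in replicate 1 and 6.95 in replicate 2. cel-mir-34, a conserved microRNA, had a peak 50 bp away with 9.61 in the pooled list and 8.64 in replicate 1. tRNA pseudogenes had 7 members within 500 bp (0.279%), against 0.297% of autosomal peaks.

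Of the 2731 protein-coding genes on X, 905 (33.1%) had a member within 500 bp of the start or end or inside the gene. The gene lists below are read beside that share. Of the 6 genes of X dosage and sex determination, 3 had one. sex-1, a nuclear receptor that represses xol-1, had 9.34 in a coding exon, and xol-1, the switch gene of male fate, had 6.98 in an intron. Neither was found in a replicate's own list. sdc-1, which acts in loading of the dosage compensation complex, had 5.15 at 232 bp before its start, with 7.17 in replicate 1 and none in replicate 2. ceh-39, fox-1 and sdc-2, the gene that targets the complex to X, had none.

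Genes of transcription and developmental timing are given first. Nuclear hormone receptors had members at 14 of 25 genes, led by nhr-3 with 18.5 pooled, 16.6 in replicate 1 and none in replicate 2, nhr-17 with 16.0, nhr-40 with 15.5 and nhr-27 with 15.3. The nhr-17 peak was found in replicate 1 alone, and those of nhr-40 and nhr-27 in both. Homeobox and body pattern genes had 6 of 25, led by ceh-60, a PBX-type homeobox gene, with 21.4 pooled, 14.2 in replicate 1 and 8.94 in replicate 2. That peak also lay 241 bp from the end of ets-4. Of the 5 heterochronic and vulval genes, 3 had one: lin-14, whose decline marks the passage of larval stages, with 14.6, lin-15A with 13.5 and lin-15B with 12.5. The first pair was found in both replicates, and lin-15B in replicate 1 alone. Of the receptor genes 56.0% had a member, of the homeobox genes 24.0%, and of all X genes 33.1%.

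In most lists of genes of differentiated tissues, the share with a member was under the 33.1% of all X genes. That share was 28.6% for muscle, 27.8% for potassium channels, 17.6% for neuropeptides and insulins and 13.9% for the chemoreceptor type. Cuticle collagens and intestine genes were also under 33.1%. Neuron genes, yolk protein genes, and C-type lectins and lysozymes were over it, in lists of 12, 5 and 4 genes. Muscle genes had 4 of 14, with the actin gene act-4 at 9.23, the myosin light chain gene mlc-1 at 8.46, sup-12 at 6.47 and lev-9 at 6.24. Neuron genes had 5 of 12, led by the touch channel gene mec-4 at 8.85 and the calcium channel gene unc-2 at 8.40. Yolk protein genes had 2 of 5, with vit-5 at 8.77, in a peak that lies inside unc-78, and vit-2 at 7.77, and the 3 intestine genes had none. Neuropeptide and insulin genes had 6 of 34, led by nlp-76 at 16.0, which is the peak also counted at the end of nhr-17. Names of the chemoreceptor type had 5 of 36, led by odr-1, a guanylyl cyclase gene caught by its name, at 15.2, and srd-43 at 13.5. The odr-1 peak lay 223 bp past the end of that gene and inside cah-4, 93 bp before the end of cah-4. Potassium channel genes had 5 of 18, led by twk-26 at 9.59. Cuticle collagens had 3 of 30, with col-175 at 13.97 and the adult collagen col-19 at 9.52, and C-type lectins and lysozymes had 2 of 4. Of the peaks named here, those of lev-9 and col-175 were found in neither replicate. Those of vit-5, mec-4 and srd-43 were found in both. The replicate values were low for vit-5, at 4.04 in replicate 1 and 2.69 in replicate 2, and for mec-4, at 2.97 and 2.36. Those of mlc-1 and vit-2 were found in replicate 2 alone, and those of act-4, sup-12, unc-2, nlp-76, odr-1, twk-26 and col-19 in replicate 1 alone.

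Few genes of the lists for functions common to all cells lie on X. Chaperones had members at 4 of 5 genes, led by hsp-3, the BiP chaperone of the endoplasmic reticulum, with 14.03 pooled, 6.52 in replicate 1 and 10.5 in replicate 2, at 18 bp after the start. The peak of hsp-25, at 10.9, was found in replicate 1 alone, and that of dnj-14, at 10.6, in replicate 2 alone, with 2.70 there. The hsp-43 peak, at 4.46, was found in neither. The histone genes had 2 of 5, led by the linker histone gene his-24 at 13.9, found in both replicates. Of the 3 translation factor genes, 1 had a member, eef-1A.2, with 10.7 pooled, 6.80 in replicate 1 and 5.90 in replicate 2. Of the 2 ribosomal protein genes, rpl-11.2 had one at 6.19, found in replicate 1 alone. No gene of the germline and oogenesis list lies on X.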

How the data were processed

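AMA-1 ChIP-seq peak lists of 2 biological replicates, numbered so in the labels, were used on ce11. The deposited files give for each peak the authors' own signal and a −log10 of a q-value, in columns without names. The q-value was not used to rank. Relaxed lists for replicate 1 (30000 peaks), replicate 2 (27106) and pooled reads (30000), and a thresholded list of 732, were made for or by the irreproducible discovery rate, per the file lists beside the samples. For aligner and peak caller, the sources used here give no name. No file used gives read counts, so depth is unknown and no interval is given for a signal.

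Lists were read with pandas 2.3.3, numpy 2.4.6 and Python 3.11.15; exact binomial intervals came from scipy 1.17.1, cover the counting of peaks only and leave aside that neighbouring peaks are not independent. Figures used matplotlib 3.10.9. Positions are 1-based. Genes were those of Ensembl release 115 for WBcel235, with names also from NCBI, and starts and ends were those of the gene record. A member is named by the nearest protein-coding start within 1000 bp, else the gene that holds it, else an end within 1000 bp, else a non-coding gene within 1000 bp, else its position. The text names the thresholded members, the 25 highest, up to 4 genes per list and those nearest the 500 bp limit; small RNA examples and the TCG places were chosen after their values were seen. The members, lists and letters were chosen with earlier results of these data known. No condition was compared and no hypothesis test was made. Counting and matching were tested on simulated peaks.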

Additional observations from a re-analysis of the deposited data

How the results depend on the processing

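Setting the tRNA distance at 250 or 1000 bp gave 2519 and 2469 members, and the ce10 list held 2729 X peaks before any tRNA rule. The stronger peaks of the thresholded list, cut at its median signal, held 3 members rather than 12. Taking each replicate's list in place of the pooled one gave 3223 and 2964 members, with 13 (without replicate 2) to 24 (without replicate 1) among the 732 highest peaks. The share found in both replicates was 12.3%, 20.1% when 1 bp of overlap sufficed, and 21.1% among the 1254 members of highest signal. Windows of 250 and 1000 bp gave 10.04% and 32.8% of members near starts, 9.53% and 31.6% near ends, and 0.757% and 1.95% near small RNA genes. In the pooled list and in each replicate, X stayed under the autosomes near starts and ends at 250, 500 and 1000 bp. Alternatives added after seeing the data gave 8 of the highest 100 members with CGCAGGG at 50 bp on either side, 10 at 150 bp, 8 in replicate 1 and 9 in replicate 2. No paired analysis was possible because the replicates form 1 group. The relaxed lists hold background and the control library was not analysed here, so weak members cannot be told from background one by one.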
